A study of Equus caballus with 4 samples.

Results

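The genes described here encode potassium, sodium and chloride channels and their subunits. They were chosen by symbol from the annotation of the arrays: the *kcn* genes of potassium channels, the *scn* genes of voltage-gated sodium channels, the *clcn* and *clca* genes and the anoctamins (*ano*). Of the 24998 gene entries of the array, 97 had such a symbol, and of the 43603 probes, 185 belonged to them. The samples were equine satellite cells (ESC), the stem cells of skeletal muscle, grown from m. semitendinosus and taken on day 3 of differentiation. The HMB group had been kept with 50 µM HMB (β-hydroxy-β-methylbutyrate, a metabolite of leucine) for 24 h and received 3 mM H2O2 during the last 1 h, and the control group received the same H2O2 without HMB. Each of 4 arrays carried Cy5-labeled cRNA of HMB-treated cells together with Cy3-labeled cRNA of control cells, and the comparison asks how HMB changes gene expression in cells under oxidative stress. The dyes were not swapped, hence treatment and dye cannot be told apart, and all 4 arrays lay on 1 slide. The control carries the same replicate number in the labels of every array, and nothing shows that the 4 arrays stand for separate horses, so the p-values may measure technical spread.

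Potassium channels set the resting potential of a cell and end its action potentials, sodium channels start the action potential, and chloride channels steady the membrane of the muscle fiber. In myoblasts the membrane becomes more negative before fusion, a step in which voltage-gated and inward rectifier potassium channels take part. Several members of the chloride channel family do not act at the cell surface but exchange chloride for protons in endosomes and lysosomes. As bulk RNA was measured, fewer cells of a type and less RNA per cell cannot be told apart.

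The probes behind the clearest differences are shown here as deposited, 5′ to 3′, with positions on EquCab1, the build named in the file headers. Exons are not annotated in the files. For *kcnk5* (minus strand) and *clcn4* (plus strand), 5 probes each lay over nearly the same bases, so they repeat 1 measurement, and the stretch that all 5 share is in capitals (55 and 56 bases, respectively). The first and the last probe of each are given.
*kcnk5*, chr20:32166548-32166607: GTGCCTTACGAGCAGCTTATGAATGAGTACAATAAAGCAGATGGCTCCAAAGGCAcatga
*kcnk5*, chr20:32166553-32166612: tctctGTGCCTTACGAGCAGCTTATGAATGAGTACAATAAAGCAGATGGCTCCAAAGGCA
*clcn4*, chrX:471311-478234: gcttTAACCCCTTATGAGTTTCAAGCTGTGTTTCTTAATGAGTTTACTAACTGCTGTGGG
*clcn4*, chrX:471315-478238: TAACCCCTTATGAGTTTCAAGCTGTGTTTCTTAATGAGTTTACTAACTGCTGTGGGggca
The *clcn4* probes hold 60 bases each but span 6924 bases of the genome, so their alignment in the files is split.

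The probes of *kcnmb2* (plus strand) do not overlap and start 1066 bases apart, so they are separate measurements of 1 transcript. Those of *clcn3* (minus strand) share the 20 bases in capitals. The genes *clca1* and *kcnk7* (both minus strand) had 1 probe each.
*kcnmb2*, chr19:14163320-14163379: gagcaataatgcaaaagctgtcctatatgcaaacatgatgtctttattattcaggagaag
*kcnmb2*, chr19:14164386-14164445: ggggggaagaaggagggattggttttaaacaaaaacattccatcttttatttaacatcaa
*clcn3*, chr2:51297497-51297556: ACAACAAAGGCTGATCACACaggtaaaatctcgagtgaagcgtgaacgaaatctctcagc
*clcn3*, chr2:51297537-51297596: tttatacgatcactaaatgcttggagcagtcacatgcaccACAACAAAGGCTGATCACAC
*clca1*, chr5:50599497-50599556: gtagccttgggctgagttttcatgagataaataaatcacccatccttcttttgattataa
*kcnk7*, chr12:16139410-16139469: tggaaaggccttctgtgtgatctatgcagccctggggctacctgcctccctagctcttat

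Most channel genes gave no usable signal in these cells. A gene was tested when at least 1 of its probes had the same channel, Cy3 or Cy5, well above background on all 4 arrays, as the scanner software marked it. This held for 25 of the 97 genes (37 of 185 probes). Of the other genes, 20 were above background on some arrays only, and 52 had no channel above background on any array. The processed signal of the tested channel probes in the control channel had a median of 76.9 brightness units, against 439 over all tested probes of the array, so the channel genes were dim. Across the arrays, 57.6 to 60.6% of all spots were well above background in Cy3 and 55.2 to 61.8% in Cy5.

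In HMB-treated cells, 10 channel genes were lower and 2 were higher than in control cells, and 13 of the tested genes were not called. A gene was called at an adjusted p of at most 0.05 (limma, Benjamini-Hochberg over all 13975 tested genes) and a fold change (FC) of at least 1.3. By this rule 28.9% of all tested genes were called, 12.5% higher and 16.4% lower, against 48% of the 25 tested channel genes, 8% higher and 40% lower. That share is not support for a change of the group, as 7 of the 12 called genes were tested through 1 channel alone. Such a filter favors genes that are brighter in that channel. With both channels required on all arrays, 16 channel genes were tested and 5 called (31.2%, against 25.9% of all genes), namely *clcn4*, *kcnmb2*, *kcnj11* and *ano5*, which were lower, and *kcnk7*, which was higher. Of the 12 calls, 4 held under other treatments of the background (*clca1*, *kcnmb2*, *clcn4* and *kcnk5*), and with ratios scaled to spike-in RNA 18 channel genes were called lower and 1 higher. At the level of probes, 22 of the 37 were called, against 28.6% of all tested probes. The median log2 ratio, HMB-treated over control, was −0.17 over the 25 genes and −0.06 over all tested genes.

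**Figure D1:**
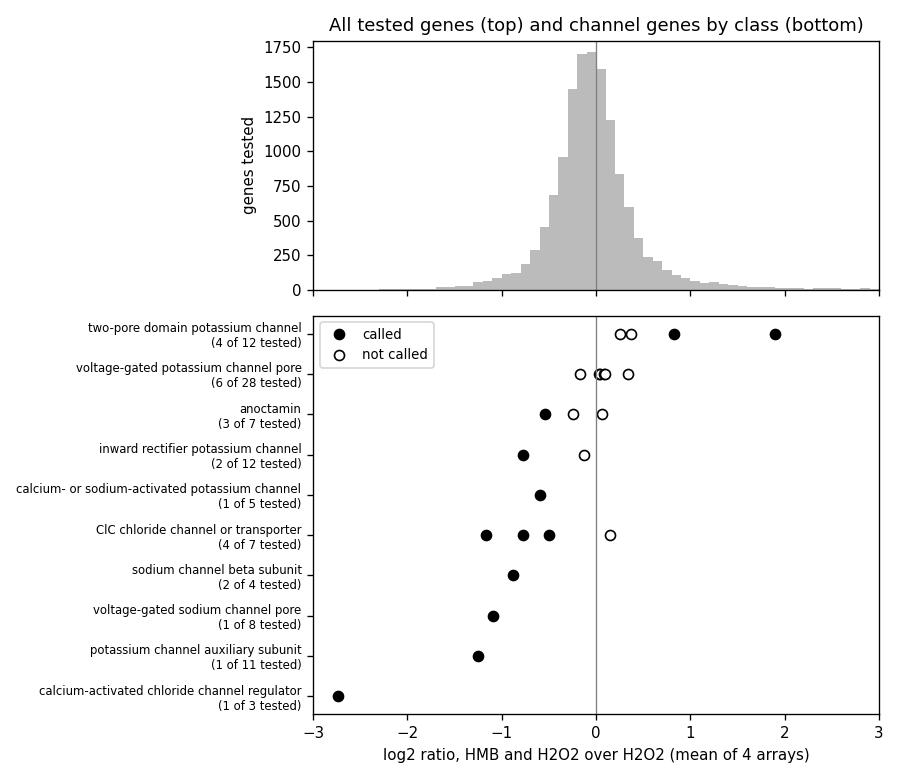
Distribution of the log2 ratio (HMB and H2O2 over H2O2, mean of 4 arrays) over the 13975 tested genes, and below it 24 of the 25 tested channel genes by class, filled where called. The called genes to the right of 0 are both tandem-pore potassium channels (drawn in the top row), and the 6 voltage-gated potassium channel pores lie near 0 with no call.

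Markers of the cells moved as well. All 8 myogenic markers on the array were above background, and 6 were called lower, *myf5*, *des*, *ncam1*, *myh3*, *ckm* and *acta1*, with log2 ratios of −1.63 to −0.93. The transcription factors *myod1* (0.10) and *myog* (0.03) were not called. The summed signal of the 8 markers was 167631 to 188791 in control cells and 63853 to 101389 in HMB-treated cells. Of 6 fibroblast markers, 4 were called higher, *pdgfra* (1.82, but 0.46 with normexp and 0.65 with no background correction), *dcn* (0.89), *thy1* (0.76) and *lum* (0.45), and the summed signal was 146331 to 173143 in control cells and 143264 to 226737 in HMB-treated cells. Of the leukocyte markers, *cd68* was called higher (0.88) and *cd14* (0.20) was not, while *cd3e* was not above background on any array. No endothelial, Schwann, neural or adipocyte marker was bright enough to be tested, and the smooth muscle marker *acta2* (−0.05) was not called. The 6 falls of myogenic markers held under each other treatment of background and scaling tried. With spike-in scaling 2 fibroblast markers stayed called higher, *pdgfra* (1.33) and *dcn* (0.41), while *lum* stood at −0.03 and *col1a2* was called lower (−0.67), and *myod1* (−0.38) and *myog* (−0.46) were called lower. The part of these shifts in the channel results was not tested.

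Of the classes, the ClC family (*clcn*) had the most genes called lower, 3 of 4 tested, against 16.4% of all tested genes. This count is not support for a change of the class, as *clcn5* and *clcn3* were tested through the control channel alone. The largest fall among the called channel genes was that of *clca1*, a secreted protein that regulates calcium-activated chloride currents. Its control signal was 139, 143, 174 and 127 on the 4 arrays, and its signal with HMB was 23.4, 11.9, 34.5 and 23.0. The groups lay far apart, but a test through the control channel alone favors such a gap. On the log2 scale the ratio was −2.57, −3.59, −2.33 and −2.46, with a mean of −2.74 ± 0.58 (SD, n = 4, FC 6.68, adjusted p = 0.000170). With HMB the probe was above background on 1 of 4 arrays, so the size of the fall is uncertain. The anoctamin *ano1*, the calcium-activated chloride channel on which *clca1* is known to act, was not above background on any array.

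The ClC family had 7 genes on the array, of which 4 were tested and 3 were called lower, against 16.4% lower of all tested genes. Of these 3, *clcn4* alone kept its call with normexp and with no background correction. The most precise of them was *clcn4*, an endosomal chloride/proton exchanger. Its first probe gave 914, 803, 1172 and 1044 in control cells and 357, 340, 565 and 458 with HMB. The groups did not overlap. Over its 5 probes the log2 ratio was −1.28, −1.24, −1.02 and −1.12, with a mean of −1.17 ± 0.12 (SD, n = 4, FC 2.24, adjusted p = 7.17e-05), and the probes ranged from −1.21 to −1.07.

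The endosomal exchanger *clcn5* had log2 ratios of −0.50, −1.05, −0.56 and −0.98 (mean −0.77 ± 0.28, SD, n = 4, adjusted p = 0.00236). With HMB it was above background on 2 of 4 arrays, and its second probe was too dim to be tested. The related exchanger *clcn3* had −0.62, −0.57, −0.22 and −0.59 (mean −0.50 ± 0.19, SD, n = 4, adjusted p = 0.00497). Of its overlapping probes, one was called (−0.69) and the other was not (−0.31, adjusted p = 0.0541). The lysosomal exchanger *clcn7* (0.15 ± 0.16, SD, n = 4, adjusted p = 0.174) was not called. The main chloride channel of the muscle fiber surface, *clcn1*, and the lysosomal *clcn6* were not above background on any array, and *clcn2* was above it on 2 arrays.

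Among the anoctamins, which comprise chloride channels and lipid scramblases, 3 of 7 genes were tested and *ano5* was called lower. Mutations of *ano5* are known to cause limb-girdle muscular dystrophy. Its adjoining probes gave control signals of 62.3 to 94.5 and 179 to 233, and with HMB 39.0 to 61.5 and 122 to 165. The signal with HMB was thus below every control signal of the same probe. The log2 ratio was −0.32, −0.54, −0.56 and −0.75, with a mean of −0.54 ± 0.18 (SD, n = 4, FC 1.46, adjusted p = 0.00304), and both probes were called. The scramblase *ano6* (−0.25 ± 0.23, SD, n = 4, adjusted p = 0.0771) and *ano10* (0.06 ± 0.15, SD, n = 4, adjusted p = 0.535) were not called.

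**Figure D2:**
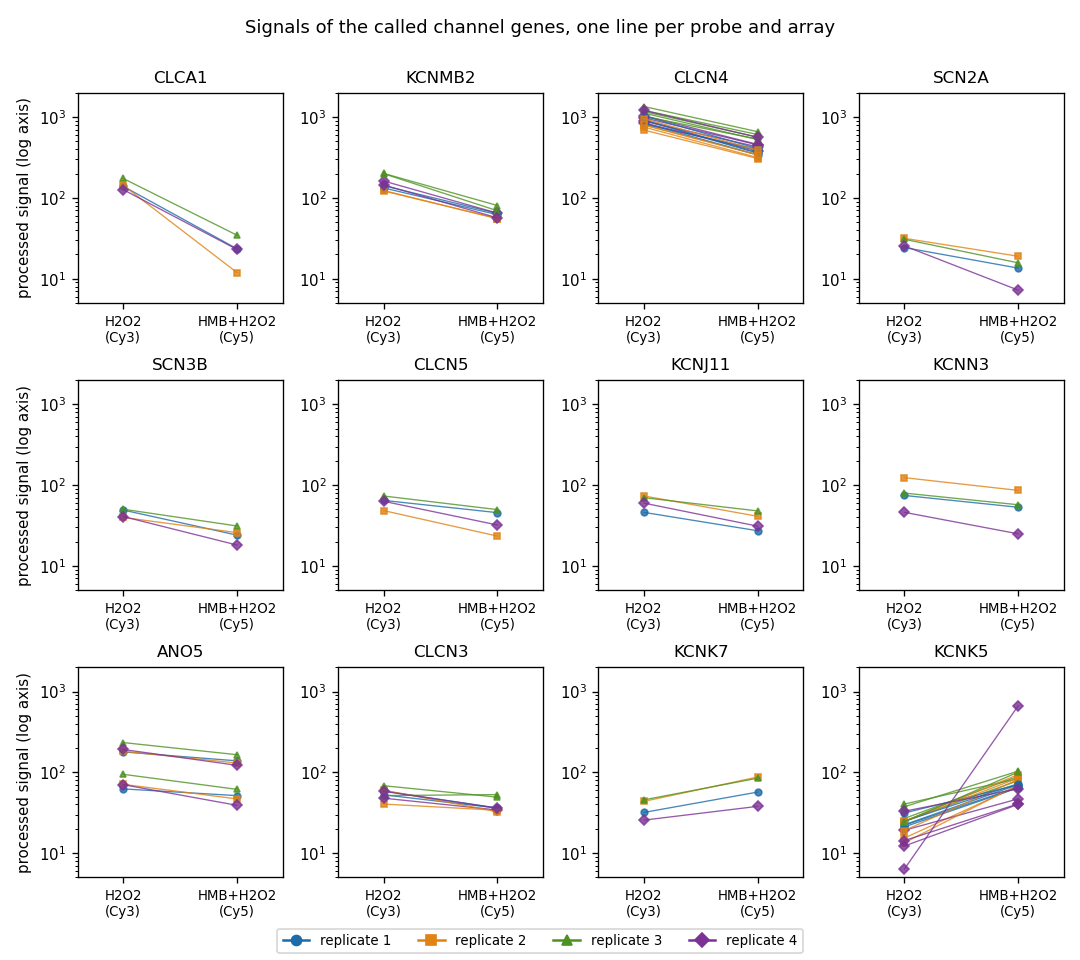
Processed signal on a log axis in control cells (Cy3) and HMB-treated cells (Cy5) for the 12 called channel genes, with 1 line for each probe and array. The line for *clca1* falls the most steeply, *clcn4* is the brightest, and 1 spot of *kcnk5* on replicate 4 rises to 667, away from the other spots of that gene.

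Sodium channel genes were dim. Of 8 pore subunits with a symbol, only *scn2a*, known from neurons, could be tested. Of its 2 probes 1 was tested, and with no filter on dim probes the log2 ratio over both was −0.55. The control signal of the tested probe was 24.3, 31.6, 30.8 and 25.5, and with HMB it was 13.5, 19.0, 15.7 and 7.22, not above background on any array. This gave log2 ratios of −0.85, −0.74, −0.97 and −1.82 (mean −1.09 ± 0.49, SD, n = 4, adjusted p = 0.00374). Set against a limit in place of the signal with HMB, the gene was 1.16-fold lower with the deposited background correction. The limit is the dimmest signal that counted as above background on each array, or the signal of the probe itself where higher. Signals that are not above background can exceed that dimmest signal, so 1.16-fold is not a firm bound. With normexp the ratio was −0.05 and not called. The pore subunit of adult skeletal muscle, *scn4a*, was not above background on any array under its symbol.

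Of the beta subunits, which anchor and tune the pore, *scn3b* was called lower. Its control signal was 49.1, 39.8, 50.3 and 40.8, and with HMB it was 24.0, 25.8, 31.2 and 18.1. The groups did not overlap, but *scn3b* was tested through the control channel alone, which favors such a gap. Its log2 ratio was −1.03, −0.62, −0.69 and −1.17 (mean −0.88 ± 0.26, SD, n = 4, adjusted p = 0.00120). With HMB the probe was above background on 2 of 4 arrays, so the size of the fall is uncertain, and with normexp the ratio was −0.16 and not called.

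Among the inward rectifiers, 2 of 12 genes were tested. The gene *kcnj11* encodes the pore of the ATP-sensitive potassium channel, which links the membrane potential to the energy state of the cell. Its control signal was 46.0, 73.4, 69.9 and 59.9, and with HMB it was 27.2, 41.1, 47.9 and 31.0. The ranges touch, since the lowest control signal was below the highest signal with HMB, whereas every array on its own gave a fall. The log2 ratio was −0.76, −0.84, −0.55 and −0.95, with a mean of −0.77 ± 0.17 (SD, n = 4, FC 1.71, adjusted p = 0.000705). Its sulfonylurea receptor *abcc8* was called lower too (−0.50 ± 0.29, SD, n = 4, adjusted p = 0.0133), but it was tested through the control channel alone. Both *kcnj11* and *abcc8* lost their call with normexp (−0.24 and −0.10) and with no background correction (−0.33 and −0.19). The receptor of muscle and heart, *abcc9*, was not above background on any array.

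The inward rectifier *kcnj2*, which takes part in the hyperpolarization of myoblasts, differed between arrays. Its log2 ratio was −0.58 and −0.75 on replicates 1 and 4 but 0.32 and 0.49 on replicates 2 and 3 (mean −0.13 ± 0.63, SD, n = 4, adjusted p = 0.662). It was not called, and its spread was the widest of the tested channel genes. A further rectifier of muscle, *kcnj12*, was not above background on any array, nor was *kcnj8*.

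Potassium channels opened by calcium were represented by a pore and by an accessory subunit. The gene *kcnmb2* encodes a beta subunit that inactivates the large-conductance channel. Its first probe gave 142, 124, 201 and 162 in control cells and 64.4, 55.3, 80.5 and 64.8 with HMB, and its second probe 133, 122, 200 and 145 against 62.0, 55.6, 69.3 and 56.5. Every signal with HMB was below every control signal. The log2 ratio was −1.12, −1.15, −1.42 and −1.34, with a mean of −1.26 ± 0.15 (SD, n = 4, FC 2.39, adjusted p = 7.69e-05), and both separate probes were called (−1.23 and −1.28). Of the auxiliary subunits it was the only one tested, out of 11.

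The small-conductance channel *kcnn3*, known from immature and denervated muscle, was also lower. Its control signal was 74.5, 124, 79.7 and 46.0, and with HMB 53.2, 86.0, 57.1 and 24.9, so the ranges overlap between arrays but not within one. Its log2 ratio was −0.49, −0.52, −0.48 and −0.88, with a mean of −0.59 ± 0.19 (SD, n = 4, FC 1.51, adjusted p = 0.00267). With HMB the probe was above background on 3 of 4 arrays, so *kcnn3* was tested through the control channel alone, which favors a fall. The call was lost with normexp (−0.14) and with no background correction (−0.22). The intermediate-conductance channel *kcnn4* was above background with HMB on 3 arrays (35.2, 41.6, 37.3 and 22.2) and in control cells on none (12.7, 13.5, 27.7 and 5.09). It was not tested by the filter used here, and without a filter its ratio of 1.41 missed the threshold (adjusted p = 0.0584).

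The tandem-pore channels carry background potassium current, and both channel genes with a symbol that were called higher with HMB belonged to this class. All 4 of the tested genes, out of 12 on the array, had a ratio above 0 on all 4 arrays. The same sign on all arrays was common, however, and held for 17 of the 25 tested channel genes. The acid-sensitive channel *kcnk5* was well above background with HMB on 4 arrays and in control cells on at most 2. The middle one of its 5 probes gave 22.4, 19.0, 26.8 and 14.3 in control cells and 70.5, 81.8, 89.2 and 40.7 with HMB. The groups did not overlap, but the gene was tested through the HMB channel alone, which favors such a gap. Over 5 probes the log2 ratio was 1.51, 2.07, 1.59 and 2.43, with a mean of 1.90 ± 0.43 (SD, n = 4, FC 3.73, adjusted p = 0.000265).

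One spot weighs on this mean. On replicate 4 the fourth *kcnk5* probe had a ratio of 6.72, with a signal of 667 with HMB and 6.33 in control cells, while the other 4 probes of replicate 4, which differ from it by a shift of 1 to 3 bases, had ratios of 0.93, 1.29, 1.51 and 1.71. The spot had not been marked by the scanner software. Without that probe the ratio of *kcnk5* was 1.68 (adjusted p = 0.000172), and with the median over probes it was 1.71 (adjusted p = 8.93e-05), so the call was kept. With the brightest probe alone, which is the one with this spot, the ratio was 2.78. With the deposited background correction, 1 of the 2 probes not above background in any control channel rose 2.83-fold against the limit described for *scn2a*. For the other, the control signals lay above the dimmest signal that counted as above background, so 3.05-fold is its measured ratio and not a bound. As signals that are not above background can exceed that dimmest signal, 2.83-fold is not a firm bound either. With normexp the ratio of *kcnk5* was 0.43 and with no background correction 0.70, so these sizes depend on the background.

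**Figure D3:**
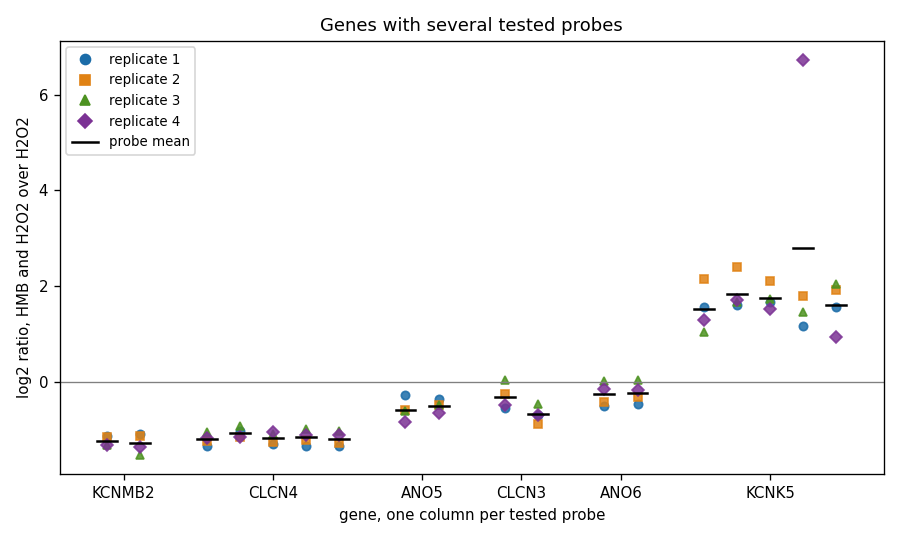
The log2 ratio (HMB and H2O2 over H2O2) of each tested probe on each array for the 6 channel genes with several tested probes, with bars at probe means. Probes of *kcnmb2*, *clcn4*, *ano5* and *ano6* lie close together, those of *clcn3* differ, and 1 spot of *kcnk5* on replicate 4 stands at 6.72.

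The second tandem-pore gene called higher was *kcnk7*, whose product carries no current known when expressed alone. Its control signal was 31.9, 43.7, 45.6 and 25.6, and with HMB it was 57.0, 87.5, 84.6 and 37.9. The ranges overlap, since replicate 4 was dim in both channels, but each array gave a rise. The log2 ratio was 0.84, 1.00, 0.89 and 0.57, with a mean of 0.82 ± 0.19 (SD, n = 4, FC 1.77, adjusted p = 0.000640). The call was lost with normexp (0.21), with no background correction (0.34) and with spike-in scaling (0.34). The mechanosensitive *kcnk2* (0.37 ± 0.20, SD, n = 4, adjusted p = 0.0180) and the weak rectifier *kcnk1* (0.25 ± 0.12, SD, n = 4, adjusted p = 0.0300) passed the adjusted p but not the FC. Leaving out replicate 1, 3 or 4 brought *kcnk2* over the FC threshold (0.38, 0.40 and 0.42), whereas with spike-in scaling *kcnk2* (−0.12) and *kcnk1* (−0.24) turned negative and were not called. A further member, *kcnk6*, passed background in both channels on 3 arrays, too few for the test.

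**Figure D4:**
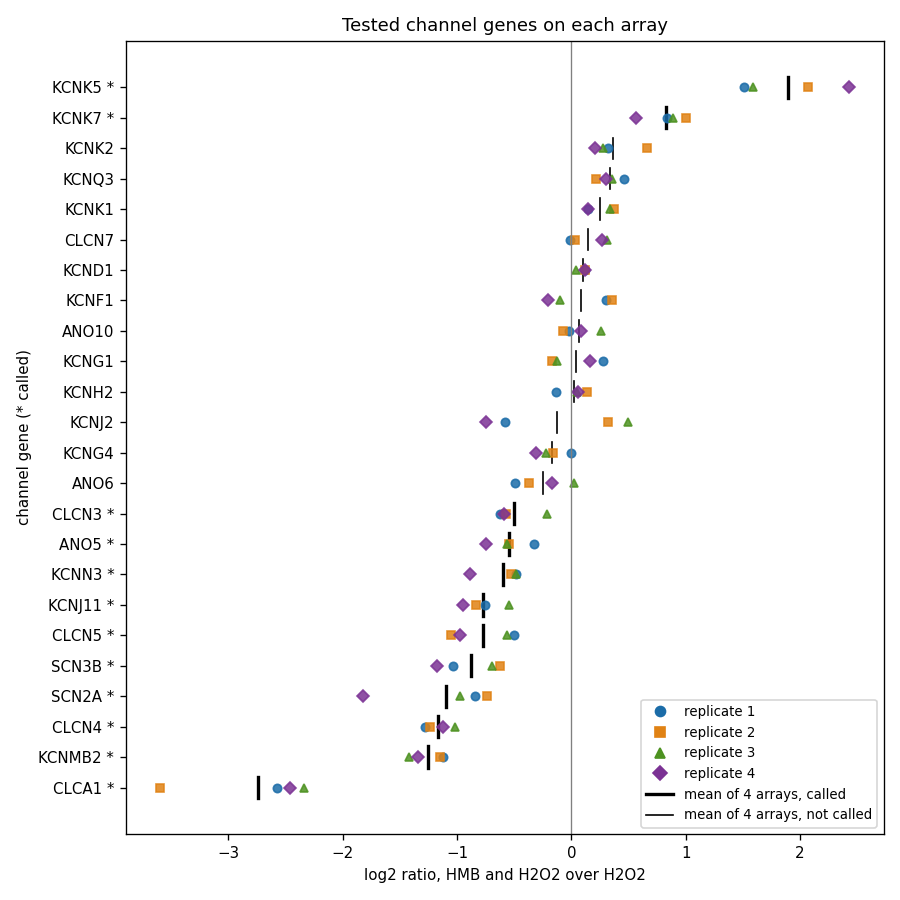
The log2 ratio (HMB and H2O2 over H2O2) of 24 of the 25 tested channel genes on each of the 4 arrays, ordered by mean, with a bar at the mean and a star at called genes. The 4 arrays lie on the same side of 0 for the 12 called genes, while those of *kcnj2* fall on both sides.

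The voltage-gated potassium pores were the largest class, with 28 genes, and of the 6 tested none was called. The subunit *kcnq3* of the M current had 0.46, 0.22, 0.36 and 0.30 (mean 0.34 ± 0.10, SD, n = 4, adjusted p = 0.00869), past the adjusted p but at an FC of 1.26. The other 5 lay between −0.17 and 0.10, with adjusted p from 0.101 to 0.769. They were *kcnd1* (0.10), the modifier subunits *kcnf1* (0.09), *kcng1* (0.04) and *kcng4* (−0.17), and *kcnh2* (0.03), which is known for cardiac repolarization. As *kcnk1*, *kcnq3*, *kcnd1*, *kcnf1*, *kcng1*, *kcng4*, *kcnh2* and *ano10* lie outside the rule for named genes, they were named after their values were seen. Of the other 22 pores, 5 were above background on some arrays, among them *kcnh1*, a channel of myoblast hyperpolarization, and 17 on none.

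Of 27 channel genes with a known role in muscle cells, 24 had a symbol on the array and 10 were tested. Among these 10, 5 were called lower (*scn3b*, *kcnj11*, *clcn3*, *kcnn3* and *ano5*) and 0 higher, against 16.4% lower and 12.5% higher of all tested genes, and all 5 lost their call with normexp and with no background correction. The genes *ano6*, *kcnj2*, *clcn7* and *kcnk2* were among those not called. A further 9 were not above background on any array.

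Without a filter on dim probes, limma called 11 of the untested channel genes as well (17% of all 24998 genes were called in that setting). Of these, 7 were not above background in any channel of any array (*clcn6*, *kcna6*, *kcnj1*, *kcnj12*, *kcnj6*, *kcnk9* and *kcnn1*), so their ratios are ratios of background signals. Of the 4 that were above it on some arrays, *kcne3* (0.75, adjusted p = 0.00944), an auxiliary subunit of potassium channels, and *kcnc1* (0.53, adjusted p = 0.00534) were higher. The genes *kcnh1* (−0.80, adjusted p = 0.0378) and *clcn2* (−0.38, adjusted p = 0.0189) were lower. The potassium channel subunit *kcne4* gave 29.8, 34.4 and 35.4 with HMB on replicates 1 to 3, against 4.02, 6.07 and 13.8 in control cells, but on replicate 4 the signals were nearly equal (ratio 0.12). It was not called (adjusted p = 0.117).

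Other genes of ion transport were examined through 5 lists with 83 genes, of which 64 were on the array and 33 were tested. Of these, 11 were called lower and 1 higher, and 21 were not called, against 16.4% lower and 12.5% higher of all tested genes. The median log2 ratio was −0.28, against −0.06 over all tested genes. With normexp 3 were called lower (*atp1b1*, *fgf12* and *tmem38b*) and 1 higher, while *slc12a3* (−0.17), *fgf13* (−0.36), *tmem38a* (−0.32), *lrrc8d* (−0.27) and *abcc8* (−0.10) lost their call, and with spike-in scaling 28 were called lower and 0 higher. Falls were measured for the sodium-chloride cotransporter *slc12a3* (−1.04 ± 0.12), the cation channels of the sarcoplasmic reticulum *tmem38b* (−1.04 ± 0.19) and *tmem38a* (−0.73 ± 0.14), and the sodium channel partners *fgf13* (−0.98 ± 0.11) and *fgf12* (−0.92 ± 0.10; all SD, n = 4, adjusted p from 0.000116 to 0.000637). These 5 had the largest changes among the called partners. With HMB *slc12a3* was above background on at most 2 arrays, so it was tested through the control channel alone, which favors a fall. In the sodium-potassium pump list, the beta subunit *atp1b1* was called lower (−0.72), and the regulator *fxyd5* was the 1 partner called higher (0.63; with spike-in scaling 0.14 and not called). Of 10 tested genes for other anion channels, 1 was called, *lrrc8d* (−0.52), a subunit of the volume-regulated channel.

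A further 23 entries were described as potassium, sodium or chloride channels or anoctamins but carried an accession in place of a symbol, and thus were not counted above. Of their 36 probes, 10 were tested, and 5 were called higher and 0 lower. Of all tested probes, 12.1% were called higher and 16.4% lower. This is not support for a rise, as 4 of the 5 passed the filter through the HMB channel alone. Such a filter favors probes that are brighter in that channel. Of the called probes, 4 belonged to 1 transcript, described as a Shab-related member of the voltage-gated potassium channels (0.38 to 0.66), and the remaining probe of this transcript was not called (0.32). The entry described as the type VIII pore of voltage-gated sodium channels was tested through the HMB channel alone and not called (0.29, adjusted p = 0.0836). All 23 entries were looked up after the other values were seen.

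The falls were not equal between arrays. Of the 10 channel genes called lower, 5 had their smallest fall on replicate 3 (*clca1*, *clcn3*, *clcn4*, *kcnj11* and *kcnn3*), 3 on replicate 1 and 2 on replicate 2. For *kcnn3* the gap was slight (−0.480 on replicate 3 and −0.486 on replicate 1). Of the 6 myogenic markers called lower, 5 had their smallest fall on replicate 3 as well. Whether falls were smaller on replicate 3 over the whole array was not tested, so this is not a link between the sets.

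Most calls of channel genes changed with how the background was treated. With normexp background correction, or with no background correction, 4 of the 12 calls remained, namely *clca1* (−0.90 and −1.27), *kcnmb2* (−0.44 and −0.67), *clcn4* (−0.89 and −0.96) and *kcnk5* (0.43 and 0.70). The ratios of the other 8 kept their sign but were smaller. With normexp they were −0.24 for *kcnj11*, −0.18 for *ano5*, −0.17 for *clcn5*, −0.16 for *scn3b*, −0.14 for *kcnn3*, −0.08 for *clcn3*, −0.05 for *scn2a* and 0.21 for *kcnk7*. The methods' t-test lost *scn2a* alone and called 11 (19.7% of all tested genes passed it). Scaling to spike-in RNA moved the median of all tested genes from −0.06 to −0.55, and 18 channel genes were then called lower and 1 higher, *kcnk5*. Under that scaling *kcnk7* had a ratio of 0.34 and was not called, and *clcn7* (−0.34) and *kcnq3* (−0.15) turned negative.

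**Figure D5:**
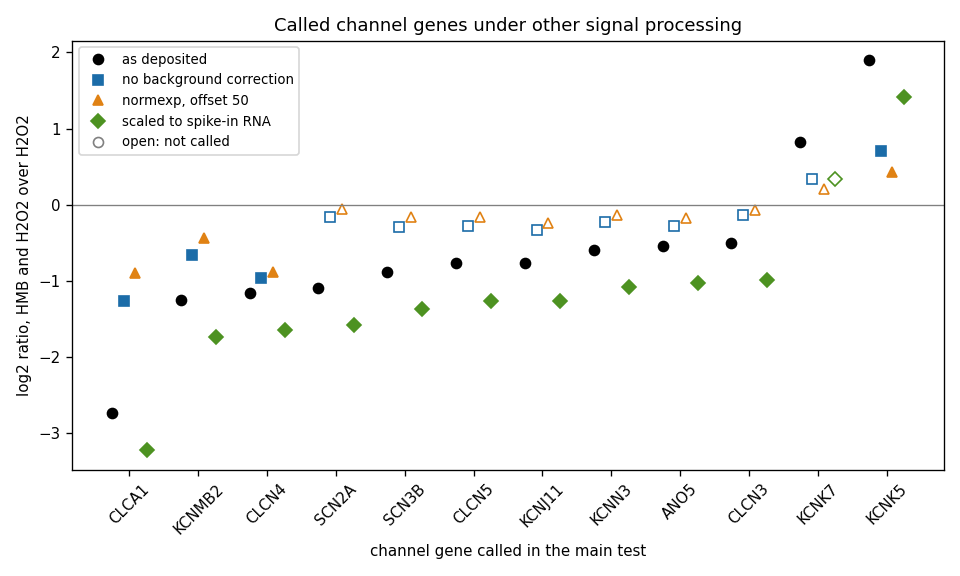
The log2 ratio (HMB and H2O2 over H2O2) of the 12 called channel genes from the deposited ratios and under 3 other ways of processing, with open symbols where the call was lost. With normexp or without background correction the ratios lie nearer to 0 and 4 genes stay called, and with spike-in scaling every ratio is lower.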

How the data were processed

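For the intensity values, the files deposited come from Feature Extraction (version 10.10.1.1 per the file headers) and hold spot means, local background and signals after linear and lowess normalization. The deposited log10 ratios are normalized Cy5 over Cy3, and the authors' table of the series holds the same log10 values. A change of base turned these deposited values into log2 ratios. Control and marked spots were left out, and no channel spot was marked or saturated. Ratios were averaged over the tested probes of a gene and tested with limma 3.58.1 in R 4.3.3 (intercept, empirical Bayes, Benjamini-Hochberg), with a ratio required on at least 3 arrays. The number of arrays limits the precision. The methods' t-test, normexp (offset 50), no background correction, median centering, spike-in scaling, other filters, the brightest probe, a GC correction, the authors' table and leaving out each replicate were alternatives. The median over probes and the omission of 1 *kcnk5* probe were added after seeing the data. The test was checked on simulated data.

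The named genes are every called channel gene, the tested genes of a list with a known role in muscle, genes whose probes oppose each other (none did), and the 5 called partners with the largest change. The channel genes and all lists were chosen with earlier results of these data known. Symbols of all 97 genes were found in RefSeq. A few genes are not reported here by name, and 1 tested channel gene is not drawn. No other data of the study were analysed here.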

Additional observations from a re-analysis of the deposited data

Results flagged for a closer look

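On 3 occasions 1 array stood apart from the other 3 of the 25 tested channel genes by Dixon's test, which chance gives in about 1 of 20 groups. The ratio of *clcn3* was −0.22 on replicate 3, a smaller fall than on the other arrays (−0.62 to −0.57). The ratio of *kcnn3* was −0.88 on replicate 4, a larger fall than on the others (−0.52 to −0.48). The ratio of *kcnd1*, which was not called, was 0.045 on replicate 3 and 0.12 on each of the others.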

How the results depend on the processing

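The number of channel genes called was 12 with 2 higher and 10 lower. It was 4 (1 higher and 3 lower) with normexp and with no background correction, 5 (1 and 4) with both channels above background, 19 (1 and 18) with spike-in scaling and 23 (5 and 18) with no filter on dim probes. Of all called genes, 43.2% were higher, against 57.2% with normexp, 62.2% with no background correction and 6.3% with spike-in scaling. For probes, the 22 calls became 11 with normexp, 13 with no background correction, 35 with no filter and 11 with both channels. The median log2 ratio of −0.17 became −0.032 with normexp, −0.031 with no background correction, −0.66 with spike-in scaling, 0 with no filter and 0.033 with both channels. Leaving out 1 replicate gave 12 to 14 calls (2 to 3 higher, 10 to 11 lower) and medians of −0.34 to −0.13, the lowest without replicate 3. With spike-in scaling *ano10* (−0.42), *kcnd1* (−0.39), *kcnf1* (−0.40), *kcng1* (−0.45) and *kcnh2* (−0.46) turned negative and were called. The cause of these differences was not tested, except that the filters change which genes are tested. Of the other values of named genes, 9 gained and 18 lost a call. Each array holds both RNAs and gives 1 paired ratio, so the test of these ratios was itself paired by array. Signal over background limits the dim genes, whose size of change is uncertain.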
